A study of Mus musculus with 4 samples.

Results

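The genes described are those of vimentin (Vim), L-plastin (Lcp1), the beta-thymosins Tmsb4x and Tmsb10, and the coronins Coro1a, Coro1b, Coro1c, Coro2a, Coro2b and Coro7. They were taken by gene symbol and make up 10 of the 35927 genes used from the count table. Several were selected on their higher counts in the mutant libraries, so the difference between mutant and control is given below as a description, with no p-value. Calls from the fit over all genes are mentioned for them, but nothing is read from those calls.

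RNA was sequenced from erythroid progenitors of the C57BL/6 mouse fetal liver at E13.5, sorted as CD71+ and TER119-. The mutant embryos were Rcor1-/-; Rcor1 encodes CoREST, a scaffold that joins a histone demethylase and histone deacetylases. Control pools mixed Rcor1+/+ and Rcor1+/- embryos in an unstated proportion. Each group had 2 libraries, each made from RNA pooled over several livers, with 25186819 and 15053229 counts in the mutants and 26892375 and 22817080 in the controls.

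The cytoskeleton of a blood cell rests on actin filaments, on intermediate filaments and on the proteins that join them. Beta-thymosins hold actin monomers in reserve, plastins tie filaments into bundles, and coronins bind filaments and act on the branching complex Arp2/3 and on cofilin. Vimentin is the intermediate filament protein of mesenchymal and many blood cells, and erythroid cells are known to lose cytoskeletal proteins of earlier stages as they mature.

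Levels are given as CPM, the counts scaled by the library total and the TMM factor to a common library size, with the SD over n = 2 libraries. Differences are log2 fold changes of mutant over control with their standard error. Rcor1 itself had 2061 and 1240 counts in the mutants, against 4083 and 3807 in the controls. Its level was 78.4 ± 0.723 CPM in mutants and 167 ± 10.5 CPM in controls, a fall of 1.09 ± 0.06 on the log2 scale (edgeR's quasi-likelihood test, adjusted p = 4.6e-11). Counts per gene do not show which exons the mutant reads cover. All 10 genes passed the filter on low counts. Of these, 6 were called higher and 1 lower at an adjusted p of 0.05, and 3 were not called. The lower one was Coro1b, and under library totals 0 of the 10 were called lower; those called higher numbered 5 to 7 over the alternatives. Over the 13140 genes tested, 57.5% were called in either direction, 28.3% higher and 29.2% lower in the mutant, and 11.7% were called higher with a fold of at least 2. Since the rise was among the reasons for choosing the genes, nothing is read from these calls, their count, or the median and overlap given next. The 10 genes had a median log2 fold change of 1.88, beside 0.01 over all genes tested. Groups did not overlap in 7 of the 10 genes and in 77.9% of all genes tested. In RNA of a sorted population, a change in RNA per cell and a change in the share of a cell type cannot be told apart.

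**Figure D1:**
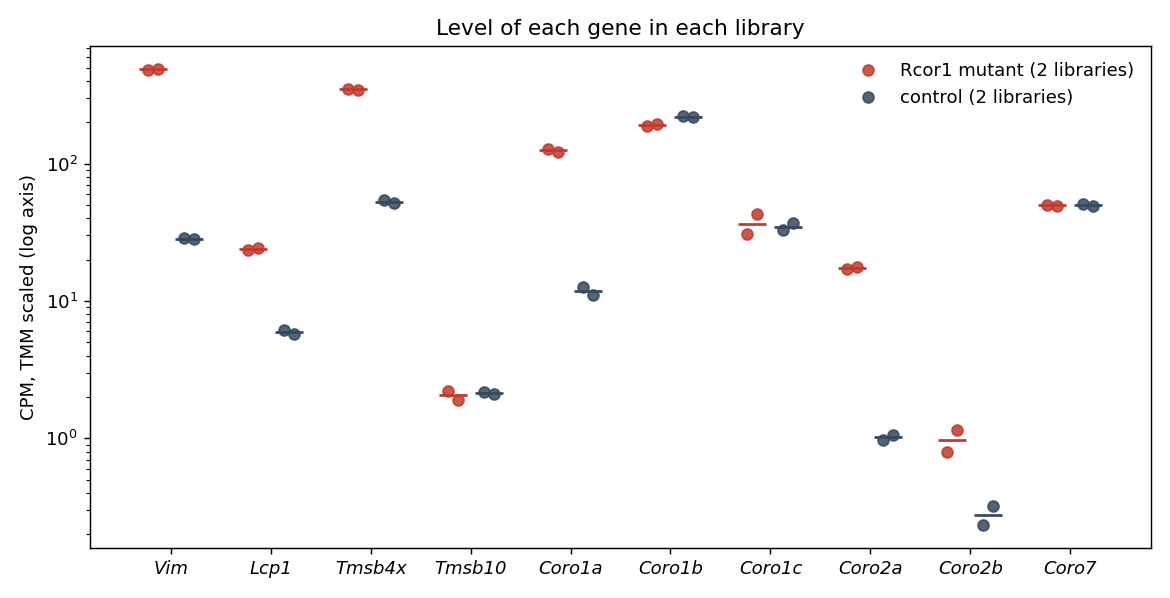
Level of each gene in each library in CPM, on a log axis, with 2 mutant and 2 control libraries per gene. Vim stands at 482.8 and 490.7 CPM in the mutants and at 28.6 and 28.4 CPM in the controls, while the points of Tmsb10, Coro1c and Coro7 overlap.

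Summed, the 10 genes took a larger share of the mutant libraries. Since several were chosen for higher counts there, nothing is read from that difference. In mutant replicate 1, Vim had 12777 and Tmsb4x 9257 of the 33690 counts, and in control replicate 1 Coro1b had 5689 of 10513. The share was 0.134% (Wilson 95% interval 0.132% to 0.135%) and 0.135% (0.133% to 0.137%) of counts in the mutants, against 0.0391% (0.0384% to 0.0399%) and 0.0386% (0.0378% to 0.0394%) in the controls. The intervals cover counting error only.

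Vim (ENSMUSG00000026728) was among the most strongly differing of the 10 genes, which lie on 10 different chromosomes. It had 12777 and 7713 counts in the mutant libraries and 731 and 619 in the controls, with both mutants far above both controls. Its level was 487 ± 5.64 CPM in mutants and 28.5 ± 0.142 CPM in controls, a log2 fold change of 4.09 ± 0.05, or 17.1-fold. Per kilobase of exon, it stood at 103 ± 1.19 RPKM in mutants, rank 464 of 12867 genes with a length, and at 6.01 ± 0.0298 RPKM in controls, rank 6524. Within single libraries, counts of Vim over those of the lamin gene Lmna, another intermediate filament gene, were 1.18 and 1.21 in the mutants and 0.0411 and 0.0422 in the controls. That ratio was far higher in both mutants than in both controls. Lmna itself was lower in the mutants (-0.74), so the ratio differed by more than the level of Vim. A comparison of 7647 genes of at least 10 CPM over the 4 libraries found the profiles nearest to that of Vim, by Euclidean distance of centred log2(CPM + 0.5), in Emb (0.0568), Rnd2 (0.174) and Rogdi (0.176). Emb encodes the membrane glycoprotein embigin. Emb had 34.6 ± 0.187 CPM in mutants and 1.61 ± 0.0613 CPM in controls. Its fitted log2 fold change of 4.42 lay further from that of Vim than those of Rnd2 (4.14) and Rogdi (4.14). The order of the nearest profiles thus depends on the added 0.5, which weighs more at low levels. With 2 libraries a group, such a search mostly finds genes with a like difference between groups.

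The counts of the beta-thymosins did not share a pattern, though the level of Tmsb10 is uncertain, as described below. Tmsb4x (ENSMUSG00000049775), which encodes the main actin monomer reserve of many cells, had 9257 and 5439 counts in the mutants and 1382 and 1121 in the controls. The groups were far apart, at 348 ± 2.62 CPM in mutants and 52.7 ± 1.87 CPM in controls, a log2 fold change of 2.72 ± 0.05. Tmsb10 (ENSMUSG00000079523), a close relative with the same activity, was scarce, with 59 and 30 counts in the mutants and 56 and 46 in the controls. Its groups overlapped, at 2.07 ± 0.227 CPM in mutants and 2.15 ± 0.0569 CPM in controls, a log2 fold change of -0.03 ± 0.22. The sign turned to 0.04 under upper quartile scaling, to 0.10 under library totals and to 0.06 without mutant replicate 2.

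Tmsb4x and Tmsb10 are on chromosomes X and 6, and their shortest complete coding sequences have the same length. Levels by coding length used the longest ones instead, of 150 bases for Tmsb4x and 201 for Tmsb10. The shortest coding sequences (GENCODE M21, GRCm38) are shown because they let the difference in counts be set beside the difference in letters. Capitals mark bases that differ between them.
Tmsb4x: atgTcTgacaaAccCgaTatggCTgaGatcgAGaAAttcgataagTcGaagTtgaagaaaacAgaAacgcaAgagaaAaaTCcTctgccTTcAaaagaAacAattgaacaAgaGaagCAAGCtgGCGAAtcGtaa
Tmsb10: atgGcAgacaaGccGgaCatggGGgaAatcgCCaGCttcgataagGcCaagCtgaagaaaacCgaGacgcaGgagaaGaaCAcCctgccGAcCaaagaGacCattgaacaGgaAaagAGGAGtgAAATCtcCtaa
Of 135 bases, 95 are identical (70.4%) and 40 differ, and the longest identical run is 10 bases. Stretches of 36 bases were therefore not shared between the coding sequences of the pair. With other genes, however, Tmsb10 shared 50.7% of the 36-base stretches of its transcript, with 8 genes in all, and Tmsb4x shared none. The sources do not state how the authors treated reads with more than 1 map position, so the level of Tmsb10 is uncertain.

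Lcp1 (ENSMUSG00000021998), the plastin of blood cells, had 626 and 385 counts in the mutants and 157 and 125 in the controls. It stood at 24.1 ± 0.596 CPM in mutants and 5.94 ± 0.288 CPM in controls, a log2 fold change of 2.01 ± 0.11, with no overlap. Lcp1 shared 20.6% of its 36-base stretches with 4 other genes. Of the other plastins, which were not among the 10 genes, Pls3 had 66.0 ± 1.49 CPM in mutants and 23.4 ± 4.27 CPM in controls. Counts of Lcp1 over those of Pls3 were 0.353 and 0.377 in the mutants and 0.301 and 0.217 in the controls. Both mutants were above both controls in that ratio, by less than in the level of either gene.

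Coronins fall into type I (Coro1a, Coro1b, Coro1c), type II (Coro2a, Coro2b) and the long Coro7. The blood cell coronin Coro1a (ENSMUSG00000030707) differed most among type I genes. It had 3378 and 1922 counts in the mutants and 321 and 243 in the controls, or 125 ± 3.78 CPM in mutants and 11.9 ± 0.997 CPM in controls. Its log2 fold change was 3.40 ± 0.08, or 10.5-fold. Coro1b (ENSMUSG00000024835), a widely expressed coronin, had the highest level of the family per kilobase of exon in both groups. It had 188.5 and 195.5 CPM in the mutants and 222.5 and 217 CPM in the controls, so that both mutants were below both controls. The log2 fold change was -0.20 ± 0.05, and it was -0.06 ± 0.05 under library totals, where Coro1b was not called. Coro1b shared 22.1% of its 36-base stretches with 3 other genes, and 432 of its exon bases lie in the exons of Ptprcap on the same strand, a gene with 108 counts over the 4 libraries. For Coro1c (ENSMUSG00000004530), another widely expressed coronin, the mutant libraries disagreed, at 30.7 and 42.6 CPM, and enclosed the controls at 32.7 and 36.8 CPM. The higher of the mutant libraries was 1.39 times the lower, a gap matched or passed by 0.276% of the 8343 genes compared. The log2 fold change of Coro1c was 0.06 ± 0.16; it was 0.30 without mutant replicate 1 and -0.17 without mutant replicate 2. Coro1c shared 18.9% of its 36-base stretches with 290 other genes.

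Among type II genes, Coro2a (ENSMUSG00000028337), which has been found with the NCoR corepressor complex, differed as much as Vim. It had 455 and 279 counts in the mutants and 25 and 23 in the controls. These correspond to 17.5 ± 0.396 CPM in mutants and 1.02 ± 0.0545 CPM in controls, a log2 fold change of 4.10 ± 0.16. Coro2a shared 6.73% of its 36-base stretches with 899 other genes. Coro2b (ENSMUSG00000041729), a coronin of the nervous system, was close to the lower limit in all libraries, with 21 and 18 counts in the mutants and 6 and 7 in the controls. Its log2 fold change was 1.74 ± 0.44. Coro7 (ENSMUSG00000039637), which is found at the Golgi, was nearly the same in both groups, at 49.7 and 49.6 CPM in mutants and 51.2 and 49.4 CPM in controls. Its log2 fold change was -0.02 ± 0.07, and 0.06 under upper quartile scaling and 0.12 under library totals. Of other genes of these families, singled out after their values were seen, Coro6 had 1 count over all 4 libraries, and Tmsb15a and Tmsb15b1 had 0.

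**Figure D2:**
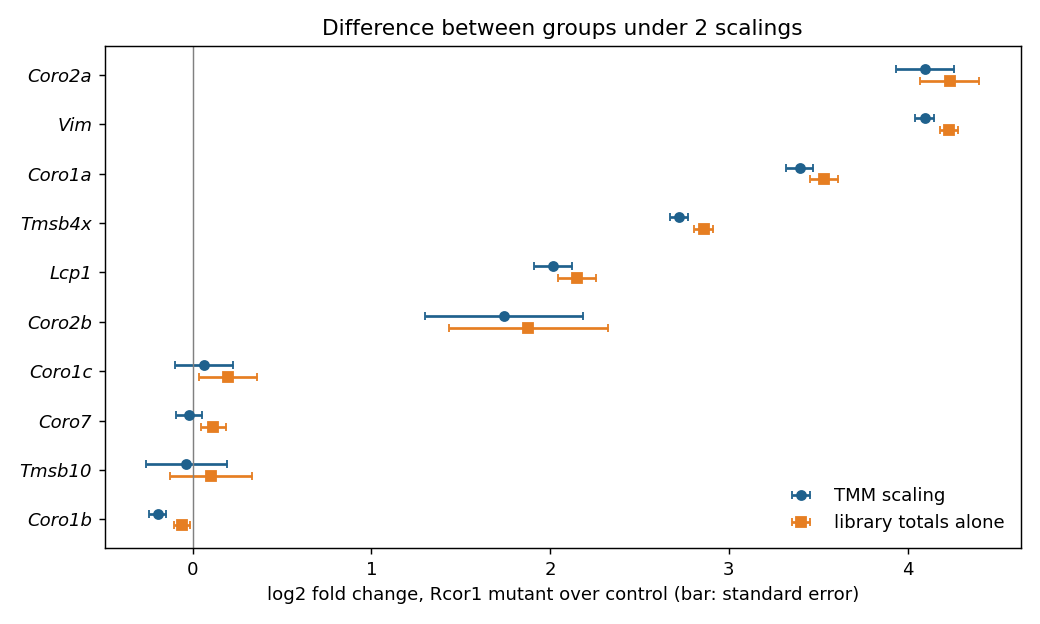
Log2 fold change of each gene, mutant over control, under TMM scaling and under library totals, with bars for the standard error. Coro2a and Vim stand at 4.10 and 4.09 under TMM, and Coro7 and Tmsb10 change sign between the scalings.

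The makeup of the coronins differed between groups. Summed over the family, the level per kilobase of exon was 117 and 119 RPKM in the mutants, against 84.4 and 82.4 RPKM in the controls. Coro1a made up 39.1% and 36.9% of it in the mutants, against 5.34% and 4.86% in the controls. Coro1b made up 50.1% and 51.3% in the mutants, against 82.3% and 82.2% in the controls. These shares are of summed levels, not of counts, and Coro2b stayed under 1% in all libraries. With coding length in place of exon length, Coro1a made up 33.8% and 31.3% in the mutants, against 4.44% and 3.99% in the controls. Within single libraries, counts of Coro1a over those of Coro1b were 0.677 and 0.625 in the mutants and 0.0564 and 0.0514 in the controls. That ratio does not depend on the scaling of the libraries.

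**Figure D3:**
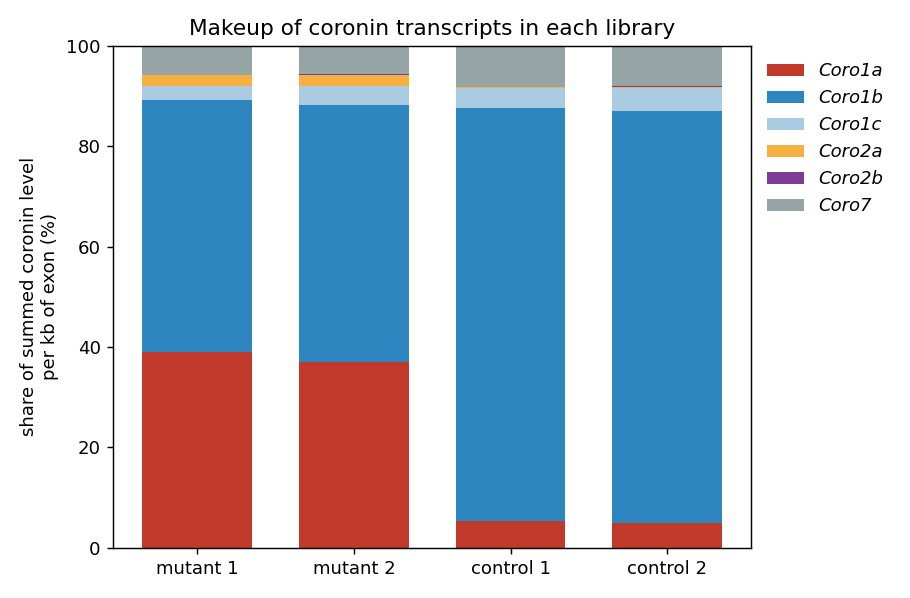
Share of each coronin in the summed coronin level per kilobase of exon, in percent, for 2 mutant and 2 control libraries. Coro1a fills 39.1% and 36.9% of the mutant bars and 5.34% and 4.86% of the control bars.

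Ordered by level per kilobase of exon, the mutants ran Tmsb4x, Vim, Coro1b, Coro1a, Coro7, Coro1c, Coro2a, Lcp1, Tmsb10 and Coro2b. The controls ran Coro1b, Tmsb4x, Coro7, Vim, Coro1a, Coro1c, Tmsb10, Lcp1, Coro2a and Coro2b. Tmsb4x stood at 254 ± 1.91 RPKM in mutants, rank 94, and at 38.5 ± 1.36 RPKM in controls, rank 1894. Neighbours in the mutant order lay close at Coro2a (2.71 ± 0.0613 RPKM) and Lcp1 (2.53 ± 0.0627 RPKM), whose places were exchanged with coding length, as were those of Coro7 and Coro1c. In the controls, coding length put Tmsb4x before Coro1b and moved Coro1c before Vim, so the middle of that order rests on the length used.

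Promoter entries of RefSeq (GRCm38.p6, the 250 bases before each start, both strands) were found for 9 of the 10 genes, with 14 entries; Coro1b is named only. The letters AATCAC, the core that Gfi1 and Gfi1b bind, were in 1 entry and in 9.14% of 32851 promoters. AGGAAG, a core of ETS factors, was in 3 entries and in 29.5% of promoters, CACACCC in 2 and in 6.93%, and AGATAA in 0 and in 9.99%. Windows of 30 bases are shown for each match in a gene that stood higher in the mutant, with the matched letters in capitals; the count files use another build, mm9.
Vim, chr2:13574145-13574174, plus strand: ctacagccctggAGGAAGgctcgaggggag
Vim, chr2:13574180-13574209, plus strand: tcccccacccccCTTCCTcacttctttccg
Lcp1, chr14:75130968-75130997, plus strand: ccccgcacccgCACACCCcccccccccagc
Coro1a, chr7:126704260-126704289, minus strand: gagctttgagacAGGAAGgggttgagtgca
Coro2a, chr4:46566543-46566572, minus strand: gggtagggactgGTGATTggatgaaatcat
Coro2b, chr9:62537225-62537254, minus strand: caagtcctgccaCTTCCTatgtaacatgga
The windows of Coro1a and Coro2a belong to the inner of the starts listed for each gene. CTTCCT and GTGATT are AGGAAG and AATCAC read on the other strand. A match describes letters and not binding.

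Other genes of actin and intermediate filament function were taken from 6 lists. Of 96 such genes in the table, 82 were tested, and 42 rose, 17 fell and 23 were not called. Those are 51.2% higher and 20.7% lower, beside 28.3% and 29.2% over all genes tested. Their median log2 fold change was 0.30. The lists were chosen with earlier results of these data known, so these shares are a description and nothing is inferred from them. Adjusted p-values below are from edgeR's quasi-likelihood test.

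Counts of Actb did not follow those of Tmsb4x. Of 4 actin genes tested, 1 rose, 1 fell and 2 were not called. Actb, a cytoplasmic actin gene, fell by 0.51 ± 0.05, to 369 ± 17.0 CPM in mutants, against 525.5 ± 6.95 CPM in controls (adjusted p = 4.3e-08). Actg1, the other cytoplasmic actin gene, had 80 counts over all libraries and was not called (0.09). Actb shared 28.9% of its 36-base stretches with 21 other genes, and Actg1 57.0% with 26, so their levels are uncertain, as for Tmsb10. Counts of Tmsb4x over those of Actb were 0.980 and 0.909 in the mutants and 0.104 and 0.0969 in the controls. The gene that rose, Actc1 (1.37 ± 0.37, adjusted p = 0.0048), was scarce, and was not called without mutant replicate 2 (adjusted p = 0.063).

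Of 18 tested genes of monomer binding and filament turnover, 8 rose, 4 fell and 6 were not called, with a median of 0.21. The capping protein gene Capg rose by 1.58, to 58.9 ± 3.64 CPM in mutants, against 19.7 ± 0.691 CPM in controls (adjusted p = 5.4e-11). Twf2 (0.97), a monomer-binding twinfilin, and the severing protein gene Gsn (0.73) rose too. The cofilin phosphatase gene Ssh1 (-0.96), the profilin gene Pfn1 (-0.49), the cofilin kinase gene Limk1 (-0.47) and Cfl1 (-0.43) fell. Cfl1, which encodes cofilin, was not called without mutant replicate 2 (adjusted p = 0.055) or without control replicate 1 (adjusted p = 0.12). It shared 26.5% of its 36-base stretches with 274 other genes. Counts of Tmsb4x over those of Pfn1, another monomer binder, were 0.462 and 0.485 in the mutants and 0.0512 and 0.0507 in the controls.

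The 9 genes of the Arp2/3 complex, which branches actin filaments, had a median of -0.13, with 3 that rose, 4 that fell and 2 not called. Arpc1b rose by 1.00 (adjusted p = 2.9e-08), Actr2 by 0.37 and Arpc2 by 0.14. Arpc1b shared 49.0% of its 36-base stretches with 843 other genes. Arpc4 (-0.24), Arpc1a (-0.23), Arpc5l (-0.19) and Arpc3 (-0.13) fell, but under library totals 0 were called lower and Arpc3 stood at 0.01. Arpc2 was not called without mutant replicate 2 (adjusted p = 0.17), without control replicate 2 (adjusted p = 0.21), with DESeq2 (adjusted p = 0.075) or with no filter beyond 1 count (adjusted p = 0.10). Without mutant replicate 1, Arpc5l (adjusted p = 0.067) and Arpc3 (adjusted p = 0.23) were not called, nor were they under upper quartile scaling (adjusted p = 0.061 for Arpc5l and 0.33 for Arpc3).

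Of 19 tested nucleation promoting factors, which switch on Arp2/3 or lengthen filaments, 12 rose, 0 fell and 7 were not called, with a median of 0.58. Nckap1l, the WAVE complex subunit of blood cells, rose by 1.81 ± 0.06, to 167.5 ± 1.59 CPM in mutants, against 48.0 ± 3.42 CPM in controls (adjusted p = 1.3e-13). Cyfip2 (1.44), of the same complex, and the formin gene Fmnl1 (1.02) rose as well.

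Of 21 other bundling and crosslinking genes tested, 14 rose, 3 fell and 4 were not called, with a median of 0.85. Ablim1, an actin-binding LIM protein gene, had 1098 and 697 counts in the mutants and 14 and 12 in the controls, a rise of 6.27 ± 0.15 (adjusted p = 1.7e-15). Eps8 (3.34), which caps and bundles filaments, rose, as did Pls3 (2.83-fold). Actn4 (-0.51), a crosslinking actinin gene, Dbnl (-0.34) and Actn3 (-1.01) fell. Actn3 was scarce, at 1.37 CPM in mutants and 2.89 CPM in controls.

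Of 11 tested genes of other intermediate filaments and their linkers, 4 rose, 5 fell and 2 were not called, with a median of 0.24. The linker genes Macf1 (0.52) and Plec (0.42), the keratin gene Krt18 (1.38) and Nes (2.02), an intermediate filament gene, rose. Krt18 and Nes were scarce, at 3.94 and 3.65 CPM in mutants and 1.51 and 0.885 CPM in controls. Gfap (-1.56), Dst (-1.09), Lmna (-0.74), Lmnb2 (-0.30) and Lmnb1 (-0.19) fell. Under library totals Lmnb1 was not called (adjusted p = 0.30).

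**Figure D4:**
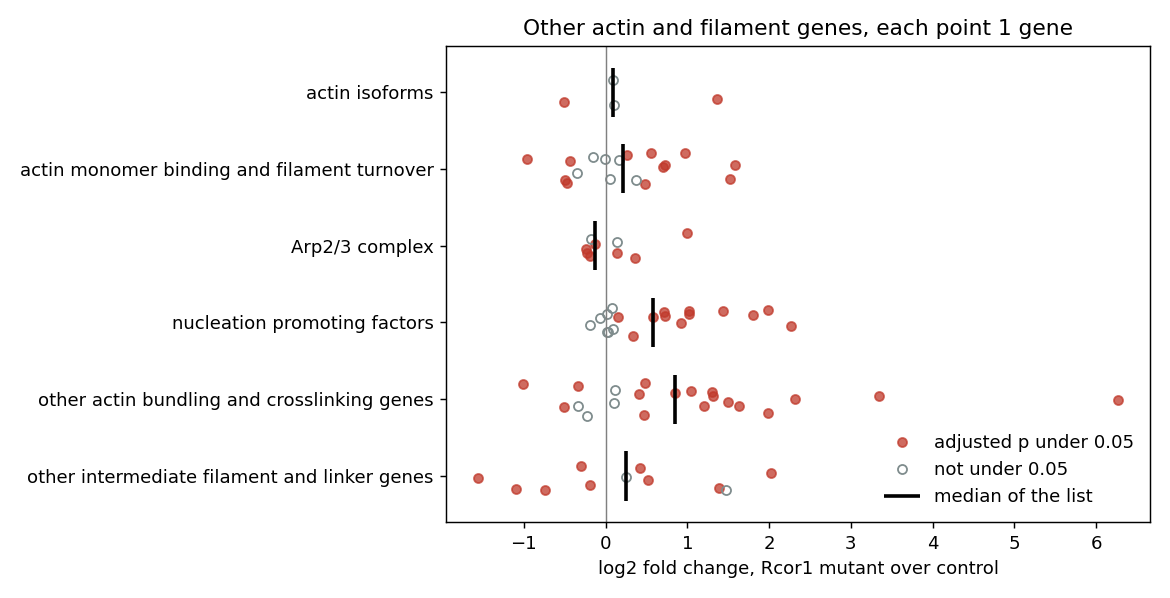
Log2 fold change of each tested gene of the 6 lists, mutant over control, with filled points for an adjusted p under 0.05 and a bar at each list's median. The medians run from -0.13 for Arp2/3 to 0.85 for the other bundling and crosslinking genes.

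Erythroid markers were abundant in every library and lower in the mutants. Their sum was 4642 and 4468 CPM in the mutants and 7239 and 7314 CPM in the controls, and 10 of 10 genes fell, with a median log2 fold change of -0.69. The counts of this and the following marker lists stand beside 28.3% called higher and 29.2% called lower over all genes tested. These lists too were chosen with earlier results known, so nothing is inferred from their counts. Tfrc, the gene of CD71, had 882 CPM in mutants and 1248 CPM in controls, and the band 3 gene Slc4a1 had 669 CPM in mutants and 1319 CPM in controls.

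Markers of other cell types were present as well, and the median log2 fold change of each of these 6 lists was above 0. Mesenchymal markers had a median log2 fold change of 1.68, and 9 of 11 rose. Their sum of 97.7 and 84.1 CPM in the mutants and 61.2 and 58.3 CPM in the controls is mostly Dlk1, at 65.1 CPM in mutants and 51.4 CPM in controls (0.35). The collagen gene Col3a1 had 7.19 CPM in mutants and 2.07 CPM in controls (1.82). Endothelial markers had a median of 1.06, and 5 of 10 rose: Tek (3.05), Pecam1 (2.15), Esam (1.70), Tie1 (1.53) and Kdr (1.22). Cdh5 (0.09), Stab2 (0.15), Ramp2 (0.91) and Lyve1 (-0.33) were not called. Their sum of 174.9 and 173.4 CPM in the mutants and 164.9 and 162.3 CPM in the controls is mostly Egfl7, which had 140.2 CPM in mutants and 150.2 CPM in controls and was not called. Pecam1 had 9.975 and 10.05 CPM in the mutants and 2.46 and 2.02 CPM in the controls.

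Macrophage markers were mixed, with a median of 0.18; of 11 tested, 3 rose, 2 fell and 6 were not called. Lyz2 (9.21 CPM in mutants and 1.16 CPM in controls), Csf1r (7.75 CPM in mutants and 3.22 CPM in controls) and Emr1 (0.54) rose. Marco (0.412 CPM in mutants and 3.19 CPM in controls) and Cd5l (0.747 CPM in mutants and 2.73 CPM in controls) fell, and Cd163 was at 0 throughout. The macrophage sum was 36.5 and 34.8 CPM in the mutants and 25.1 and 25.0 CPM in the controls. Lymphoid markers summed to 14.1 and 13.0 CPM in the mutants and 7.86 and 7.89 CPM in the controls. Only 4 of these 13 markers were tested. Cd79b (2.95) and Cd3g (1.03) rose, while Lck (6.94 CPM in mutants and 6.11 CPM in controls) and Nkg7 (0.47) were not called. The rest were too scarce to be tested, among them Klrb1c at 0.

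Megakaryocyte markers had a median of 1.26, with 6 of 8 that rose and Vwf (-0.59) that fell. They summed to 228.6 and 220.3 CPM in the mutants and 107.8 and 104.4 CPM in the controls. Pf4 had 72.7 CPM in mutants and 12.7 CPM in controls, and Itga2b had 70.2 CPM in mutants and 29.5 CPM in controls. Hepatoblast markers had a median of 0.35, and 6 of 9 rose. They summed to 1255 and 1270 CPM in the mutants and 929.2 and 918.8 CPM in the controls, led by Afp (661 CPM in mutants and 449.6 CPM in controls) and Alb (433 CPM in mutants and 331.5 CPM in controls). Krt8, Krt18, Des and Acta2 are in these lists and in the filament lists above. None of the 7 sums overlapped between mutants and controls, but neither did the groups in 77.9% of all genes tested. Nothing is read from that count, and the mesenchymal and endothelial sums are mostly Dlk1 and Egfl7. The part of these cell types in the levels of Vim, Lcp1, Tmsb4x and the coronins was not tested.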

How the data were processed

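Messenger RNA was sequenced in 2 mutant and 2 control libraries. The tools FastQC, Bowtie and edgeR and the build mm9 come from the submitters' processing notes; versions, strand and the handling of reads with several map positions are not given there. The authors deposited whole-number counts per gene, taken as raw because library totals differ, and a table with a log2 fold change and p-value per gene, per the file headers. The columns named WT were assigned to the control libraries by number; no label states this outright. Of 35939 rows, 12 that held NA were left out.

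Counts were fitted with edgeR 4.0.16 (R 4.3.3, limma 3.58.1): filterByExpr, TMM (factors 0.952 to 1.05), quasi-likelihood test with robust fit, two-sided, Benjamini-Hochberg adjustment over 13140 genes, threshold 0.05. The common dispersion gave a coefficient of variation of 4.81%. Replicates differed by more than counting noise (chi-square per gene 3.67 in mutants and 5.76 in controls over 10006 genes). Levels per kilobase used exon lengths of GENCODE M21. The fit was tested on simulated data.

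The 10 genes and the lists were chosen with earlier results of these data known. Named genes were, per list, up to 3 called rises and 3 called falls with no overlap of groups and a mean of 10 CPM or more in the higher one, then all genes of any count of 5 or fewer; per marker list, the 2 with the highest level, with others that make up a small count or stand at 0; and the 3 profiles nearest to Vim. Brk1 was not found by symbol. Whole-table p-values set the group difference against the spread between these pooled libraries, estimated in part across genes. In the authors' deposited table, the log2 fold change of Vim was 4.23 and that of Coro1b -0.06. Alternatives were RLE and upper quartile scaling, library totals, other filters, DESeq2 1.42.0, the replicate block and each library left out.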

Additional observations from a re-analysis of the deposited data

How the results depend on the processing

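Results were recomputed under 11 alternatives. Genes called numbered 7558 and ran from 5917 (DESeq2) to 8402 (replicate block). With library totals alone, all tested genes together had a median of 0.15, with 5112 genes called higher and 2553 lower. Genes of the 6 lists called higher numbered 35 (DESeq2) to 50 (library totals), and those called lower 12 to 20. With the replicate block there were 45 higher and 20 lower; no label says that the replicate numbers pair libraries, and same-numbered libraries deviated together only weakly (r = 0.18 over 13140 genes). Leaving out each library gave 6234 to 7394 genes called, 39 to 41 list genes higher and 15 to 18 lower.

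The log2 fold change of Vim ran from 4.06 to 4.23, of Coro2a from 4.03 to 4.23, of Coro1a from 3.30 to 3.53, of Tmsb4x from 2.67 to 2.86, of Lcp1 from 1.95 to 2.15, of Coro2b from 1.52 to 2.04 and of Coro1b from -0.23 to -0.06. Of 109 values of the 10 genes, 8 had the other sign, all in Coro1c, Coro7 and Tmsb10. Of 374 values of 34 named list genes, 16 lost their call and 1 reversed: Arpc3 stood at 0.0081 under library totals. Coro2b could not be fitted with the filter of CPM above 1. With 2 pooled libraries a group, the spread between embryos is not measured, and the counts of Coro2b and Tmsb10 limit their precision.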
